A study of Homo sapiens with 9 samples.

Results

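The Notch receptors NOTCH1, NOTCH2 and NOTCH3, the ligands JAG1 and JAG2 and the target genes HES1, HES4, HEY1 and HEYL were followed across U87 cells, GSCs and Diff cells. These 9 genes were picked by symbol from the 60606 genes of the RNA-seq table, with earlier results of these data known. All 9 were present in the table. The receptor NOTCH3 fell from 67.2 ± 6.85 TPM (SD, n = 3) in U87 cells to 6.78 ± 0.755 in GSCs and to 0.255 ± 0.0494 in Diff cells. NOTCH2 was the most abundant receptor in each of the 3 cell lines, JAG1 was lower and JAG2 higher in GSCs than in U87 cells, and HES1 was higher in Diff cells than in GSCs.

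Notch receptors are transmembrane proteins that are activated by ligands on neighbouring cells. Ligand binding exposes the receptor to cleavage by an ADAM protease and then by γ-secretase, which frees its intracellular domain. In the nucleus this domain joins the DNA-binding protein RBPJ and a Mastermind coactivator and turns on genes of the HES and HEY families, which encode transcriptional repressors. In the nervous system the pathway is known for keeping neural stem and progenitor cells undifferentiated, and it has been studied in glioblastoma stem cells for that reason.

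U87 is an established human glioblastoma line, and the U87 group was grown in medium with 10% serum and was not irradiated. GSCs were stem-like cells derived from U87, cultured without serum in the presence of 20 ng/ml EGF and 20 ng/ml bFGF, and irradiated in 13 cycles of 5 Gy. Diff cells were obtained from the irradiated GSCs by differentiation in medium with 10% serum, from cells selected out of clonal communities. Each group had 3 libraries, 9 in all, and all derive from the same parental line. Unirradiated GSCs were not analysed here. In GSCs against U87 cells, the effects of irradiation, of culture medium and of the stem-like state therefore cannot be told apart. Diff and U87 cells were both in 10% serum, but irradiation and the earlier stem-like culture cannot be told apart between them. Diff cells and GSCs shared the irradiated lineage. In Diff cells, the selection out of clonal communities cannot be told apart from differentiation and serum either. Separate cultures are not stated for the 3 libraries of a group, so p-values measure the spread between these libraries only.

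The deposited values are log2(TPM + 1), where TPM (transcripts per 1000000) has gene length and library size divided out, so levels can be set side by side between genes. About 18600000 to 25300000 reads fell in genes in each library, as approximated from the spacing of low TPM values. Libraries of the same line correlated at 0.956 to 0.971 and libraries of different lines at 0.846 to 0.922 over genes, and no library stood apart from its group. Of the stem cell markers, SOX2 lay at 0.809 to 0.994 TPM in GSCs against at most 0.115 in U87 cells and FABP7 at 4.38 to 5.82 against 0.546 to 0.986, while NES was lower in GSCs (21.7 to 23.3 TPM) than in U87 cells (31.1 to 35.5). SOX2 was too low to be tested. POU3F2 averaged 0.181, 3.25 and 6.48 TPM in U87 cells, GSCs and Diff cells, highest in Diff cells. SALL2 averaged 2.05, 1.64 and 0.214 TPM, lowest in Diff cells. Of the neuronal markers, MAP2 lay at 20.6 to 22.5 TPM in Diff cells, above the 6.94 to 9.19 of U87 cells, while STMN2 was listed at 0 in all 9 libraries and DCX did not exceed 0.0228 TPM. TUBB3 averaged 3.74, 4.66 and 5.22 TPM in U87 cells, GSCs and Diff cells, and the GSC range overlapped those of both other lines.

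A gene was called changed where limma gave a Benjamini-Hochberg adjusted p under 0.05, over all 22909 genes with a mean TPM over 1, together with an absolute log2 fold change over 1. Fold changes are on the log2(TPM + 1) scale, which understates the change of low genes. Of the 9 Notch genes, 7 passed the filter. HES4 and HEYL lay below it and were not tested. The comparisons of GSCs and of Diff cells with U87 cells share the 3 U87 libraries, so their values are given side by side and are not independent of each other.

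Of the 7 genes tested, NOTCH3 had the largest absolute fold change in each of the 3 comparisons. NOTCH3 (chr19:15159038-15200981, minus strand, 33 exonic blocks in GENCODE 29, GRCh38), a receptor best known from vascular smooth muscle and pericytes, was read at 70.9, 59.3 and 71.4 TPM in the 3 U87 libraries. It was read at 7.21, 7.23 and 5.91 TPM in the GSC libraries. The Diff libraries gave 0.210, 0.247 and 0.308 TPM. The groups were far apart, with every GSC library below every U87 library and every Diff library below every GSC library. The log2 fold change was -3.13 ± 0.112 (SE) in GSCs against U87 cells (limma adjusted p = 1.23e-07) and -5.76 ± 0.112 in Diff cells against U87 cells (adjusted p = 1.86e-08). Diff cells were lower than GSCs as well, by -2.63 ± 0.112 (adjusted p = 1.6e-06). The size of these values moved with the processing, which included other pseudocounts. Over all alternatives run, GSCs against U87 cells ran from -3.29 to -2.61. Diff cells ran from -7.57 to -3.78 against U87 cells and from -4.28 to -1.16 against GSCs. In TPM, the mean was 9.91-fold lower in GSCs than in U87 cells and 264-fold lower in Diff cells. The Diff values rest on about 17, 17 and 21 reads, against 3861 to 5300 in the U87 libraries, so the fold for Diff cells is less precise than the one for GSCs. In bulk RNA, fewer cells that express a gene and less RNA per cell cannot be told apart.

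Some markers of pericytes and smooth muscle were also lower than in U87 cells. The summed TPM of 5 such markers, all over 1 TPM, was 170.0 to 175.0 in U87 cells, 70.1 to 87.9 in GSCs and 69.1 to 71.3 in Diff cells. Of the 5, PDGFRB was called lower in both GSCs and Diff cells against U87 cells and CSPG4 in Diff cells only, and none was called between Diff cells and GSCs. PDGFRB and CSPG4 made up most of the sum. The remaining 3 were not called in any comparison: RGS5 averaged 4.37, 4.75 and 3.83 TPM in U87 cells, GSCs and Diff cells, MYH11 2.22, 1.32 and 1.39 TPM, and ACTA2 16.9, 9.96 and 17.0 TPM, with ACTA2 higher in Diff cells than in GSCs where NOTCH3 was lower (log2 fold change 0.72, limma adjusted p = 0.000979). Their part in the NOTCH3 result was not tested.

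Against U87 cells, NOTCH2 (chr1:119911553-120069626, minus strand) went in the other direction from NOTCH3. The U87 libraries gave 229.0, 230.0 and 211.9 TPM. The GSC libraries gave 381.2, 383.6 and 383.4 TPM, and the Diff libraries gave 288.9, 287.8 and 302.9 TPM. The 3 groups did not overlap, and GSCs were the highest. The differences passed the adjusted p but not the fold threshold, with a log2 fold change of 0.77 ± 0.0477 in GSCs (limma adjusted p = 2.66e-06) and 0.39 ± 0.0477 in Diff cells (adjusted p = 0.000233) against U87 cells. Diff cells lay below GSCs, at a log2 fold change of -0.38 ± 0.0477 (adjusted p = 0.000416).

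NOTCH2 has human-specific partial copies with nearly the same sequence, NOTCH2NLA, NOTCH2NLB, NOTCH2NLC and NOTCH2NLR, and reads could be divided between them, so their separate levels are uncertain. NOTCH2 held 94.3% of the TPM summed over itself and its copies in U87 cells, 93.9% in GSCs and 91.9% in Diff cells. Of the 3 copies tested, NOTCH2NLC rose from 6.27 ± 0.437 TPM in U87 cells to 14.9 ± 3.22 in GSCs (log2 fold change 1.11, limma adjusted p = 0.000427) and 14.2 ± 1.87 in Diff cells (1.06, adjusted p = 0.000748). Each call was lost without 1 library: the log2 fold change was 0.98 in GSCs without GSCs replicate 3 and 0.97 in Diff cells without Diff replicate 1, and with log2(TPM + 5) they were 0.81 and 0.76. NOTCH2NLA and NOTCH2NLB were not called in any comparison, and NOTCH2NLR averaged 0.162 TPM or less in each line and was not tested.

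NOTCH1 (chr9:136494433-136545786, minus strand), the founding member of the receptor family, was read at 14.6, 12.2 and 11.9 TPM in U87 cells. GSCs gave 17.4, 19.1 and 12.9 TPM, and Diff cells gave 12.7, 12.2 and 11.9 TPM. The U87 and GSC ranges overlapped, as did those of U87 and Diff cells. NOTCH1 was not called in any comparison, with log2 fold changes of 0.32 ± 0.139 in GSCs (limma adjusted p = 0.0928) and -0.06 ± 0.139 in Diff cells (adjusted p = 0.761) against U87 cells. Between Diff cells and GSCs it was -0.38 ± 0.139 (adjusted p = 0.0662). Without GSCs replicate 3, the lowest of its group, the first of these values was 0.47 with an adjusted p of 0.005 and the last -0.535 with an adjusted p of 0.0045. NOTCH4, the remaining receptor, averaged 0.484, 0.764 and 0.202 TPM in U87 cells, GSCs and Diff cells and was below the filter.

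The make-up of the receptor pool differed between the lines. The TPM of the 4 receptors summed to 304.2 ± 9.77 in U87 cells, 406.7 ± 4.05 in GSCs and 305.9 ± 8.11 in Diff cells (SD, n = 3). NOTCH2 made up 73.5 ± 2.41% of this sum in U87 cells, 94.1 ± 0.951% in GSCs and 95.8 ± 0.228% in Diff cells. NOTCH3 made up 22.1 ± 2.27%, 1.67 ± 0.173% and 0.0831 ± 0.0141%. NOTCH1 made up 4.02 to 4.23% in the 3 lines. NOTCH2 exceeded NOTCH3 by 2.97 to 3.88 times in the U87 libraries, by 52.9 to 64.9 times in the GSC libraries and by 984 to 1380 times in the Diff libraries.

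**Figure D1:**
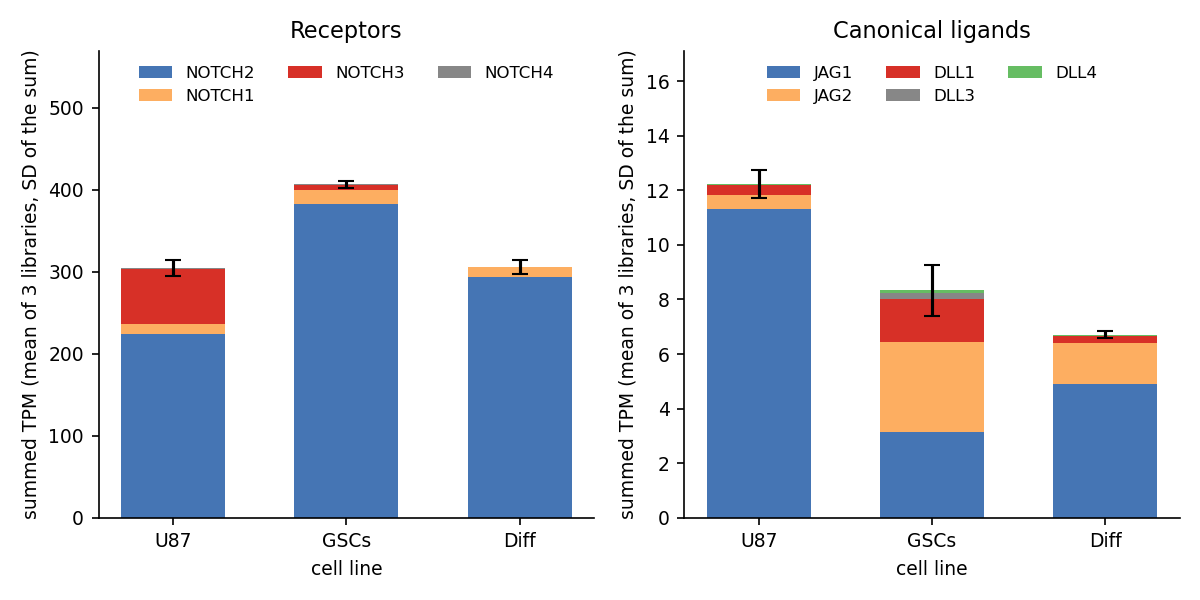
Stacked bars of the mean TPM of the 4 Notch receptors (left) and the 5 canonical ligands (right) in U87 cells, GSCs and Diff cells, 3 libraries each, with the SD of the sum as error bar. The NOTCH3 segment is 22.1% of the receptor bar in U87 cells and 0.0831% in Diff cells, and the JAG1 segment of the ligand bar is 92.6% in U87 cells, 37.9% in GSCs and 73.0% in Diff cells.

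The ligand genes were expressed at lower levels than NOTCH2 in every library, and the 2 Jagged genes moved in opposite directions. JAG1 (chr20:10637684-10673999, minus strand), a canonical Notch ligand, was read at 11.9, 10.8 and 11.2 TPM in U87 cells. GSCs gave 3.00, 3.25 and 3.15 TPM, and Diff cells gave 4.797, 4.995 and 4.893 TPM. The 3 groups did not overlap, with U87 cells the highest and GSCs the lowest. JAG1 fell in GSCs by 1.57 ± 0.0877 on the log2 scale (limma adjusted p = 1.46e-06) and in Diff cells by 1.06 ± 0.0877 (adjusted p = 2.21e-05) against U87 cells. The Diff call was close to the fold threshold and was lost with quantile normalization (-0.999) and with log2(TPM + 5) (-0.72). The GSC value ran from -1.82 to -1.0 over all alternatives run, so it came to the fold threshold as well. Between Diff cells and GSCs the log2 fold change was 0.51 ± 0.0877 (adjusted p = 0.00226), under the fold threshold. An antisense gene lies opposite 0.8% of the JAG1 exon bases.

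JAG2 (chr14:105140981-105168824, minus strand), the second Jagged ligand, was read at 0.566, 0.541 and 0.396 TPM in U87 cells. GSCs gave 3.84, 3.39 and 2.68 TPM, and Diff cells gave 1.71, 1.39 and 1.47 TPM. U87 cells were the lowest and GSCs the highest, again without overlap. JAG2 rose in GSCs by 1.51 ± 0.152 on the log2 scale (limma adjusted p = 5.21e-05), a 6.59-fold higher mean TPM. In Diff cells the log2 fold change was 0.75 ± 0.152 (adjusted p = 0.0044) against U87 cells and -0.77 ± 0.152 (adjusted p = 0.00486) against GSCs, both under the fold threshold. JAG2 is a low gene, with 20 to 24 reads in the U87 libraries and 103 to 169 in the GSC libraries, and its calls moved with the pseudocount: with log2(TPM + 5) the GSC value was 0.59 and not called, and with log2(TPM + 0.1) the Diff value was 1.44 against U87 cells and -1.06 against GSCs, both called. On 469 exon bases JAG2 is overlapped by AL512356.1 on the same strand, so reads there cannot be assigned to either gene.

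The ratio of JAG1 to JAG2 was 19.98 to 28.38 in the U87 libraries, 0.782 to 1.18 in the GSC libraries and 2.81 to 3.60 in the Diff libraries. Of the Delta-like ligands, DLL1 was read at 0.198, 0.264 and 0.597 TPM in U87 cells, at 1.52, 1.92 and 1.31 TPM in GSCs and at 0.152, 0.358 and 0.217 TPM in Diff cells. The GSC libraries were thus all above the others, but DLL1 was below the filter and was not tested. DLL3 was listed at 0 in the 3 U87 libraries and lay at 0.0636 to 0.450 TPM in GSCs, and DLL4 did not exceed 0.105 TPM in any library. Summed over the 5 canonical ligands, the level was 12.2 ± 0.506 TPM in U87 cells, 8.33 ± 0.919 in GSCs and 6.70 ± 0.13 in Diff cells. JAG1 made up 92.6 ± 1.35%, 37.9 ± 4.51% and 73.0 ± 1.01% of it, and JAG2 4.11 ± 0.774%, 39.6 ± 4.45% and 22.7 ± 2.73%. DLL1 made up 18.9 ± 1.9% of the sum in GSCs.

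Endothelial cells are known to express Jagged and Delta-like ligands, and VWF, an endothelial marker, was also highest in GSCs. The summed TPM of 4 endothelial markers, of which VWF was the largest part in GSCs, was 4.52 to 7.31 in U87 cells, 17.3 to 20.2 in GSCs and 4.79 to 5.89 in Diff cells. Of the 3 tested, VWF was called higher in GSCs (11.4 TPM against 0.527 in U87 cells), while PECAM1 (6.25 against 2.77 TPM) and TEK (1.12 against 2.41 TPM) were not called. These last missed the fold threshold only, PECAM1 at 0.97 (limma adjusted p = 0.0056) and TEK at -0.69 (adjusted p = 0.0187). VWF was called lower in Diff cells than in GSCs (-2.18), and TEK lower in Diff cells than in U87 cells (-1.245). TEK was thus highest in U87 cells. CDH5, a defining endothelial gene, did not exceed 0.465 TPM in any library, and its ranges overlapped between the lines. Their part in the JAG2 and DLL1 levels was not tested.

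The target genes followed here, HES1, HES4, HEY1 and HEYL, were low in all 3 lines. HES1 (chr3:194136145-194138732, plus strand), a repressor that holds back neuronal differentiation and the best known Notch target, was read at 2.34, 1.33 and 2.21 TPM in U87 cells. GSCs gave 1.13, 1.21 and 0.485 TPM, and Diff cells gave 3.55, 4.31 and 3.75 TPM. The Diff libraries were the highest and the GSC libraries the lowest, with no overlap. HES1 rose in Diff cells against GSCs by 1.35 ± 0.207 on the log2 scale (limma adjusted p = 0.0013), a 4.12-fold higher mean TPM. This call was lost with log2(TPM + 5), at 0.58. Against U87 cells the HES1 values were 0.73 ± 0.207 for Diff cells (adjusted p = 0.0215) and -0.61 ± 0.207 for GSCs (adjusted p = 0.0366), both under the fold threshold, which GSCs passed with log2(TPM + 0.1), at -1.04. HES1 rests on 6 to 65 reads per library. With 1 library left out, its adjusted p for GSCs against U87 cells ran from 0.0176 to 0.117, and the one for Diff cells against U87 cells from 0.00974 to 0.0724.

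HEY1 (chr8:79764010-79767863, minus strand), another repressor of the family, was read at 3.77, 2.995 and 2.91 TPM in U87 cells. GSCs gave 4.82, 4.60 and 4.91 TPM, and Diff cells gave 3.11, 3.63 and 3.87 TPM. GSCs were above both other lines, which overlapped each other. No comparison was called: the log2 fold change in GSCs against U87 cells was 0.46 ± 0.124 (limma adjusted p = 0.0144), in Diff cells against U87 cells 0.11 ± 0.124 (adjusted p = 0.544) and in Diff cells against GSCs -0.35 ± 0.124 (adjusted p = 0.0572). HES1 and HEY1 thus differed in their order, HES1 being lowest and HEY1 highest in GSCs.

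HES4 (chr1:998962-1000172, minus strand) and HEYL (chr1:39624153-39639945, minus strand) were barely detected. HES4 was read at 0.135, 0.258 and 0.453 TPM in U87 cells, at 0, 0.234 and 0.298 TPM in GSCs and at 0.104, 0 and 0 TPM in Diff cells. These values correspond to at most 4 reads in any library. HEYL was listed at 0 in 7 libraries and was read at 0.0311 TPM in U87 replicate 3 and 0.0321 TPM in GSCs replicate 2, about 1 read in each. At this depth no difference between the lines can be read from either gene.

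**Figure D2:**
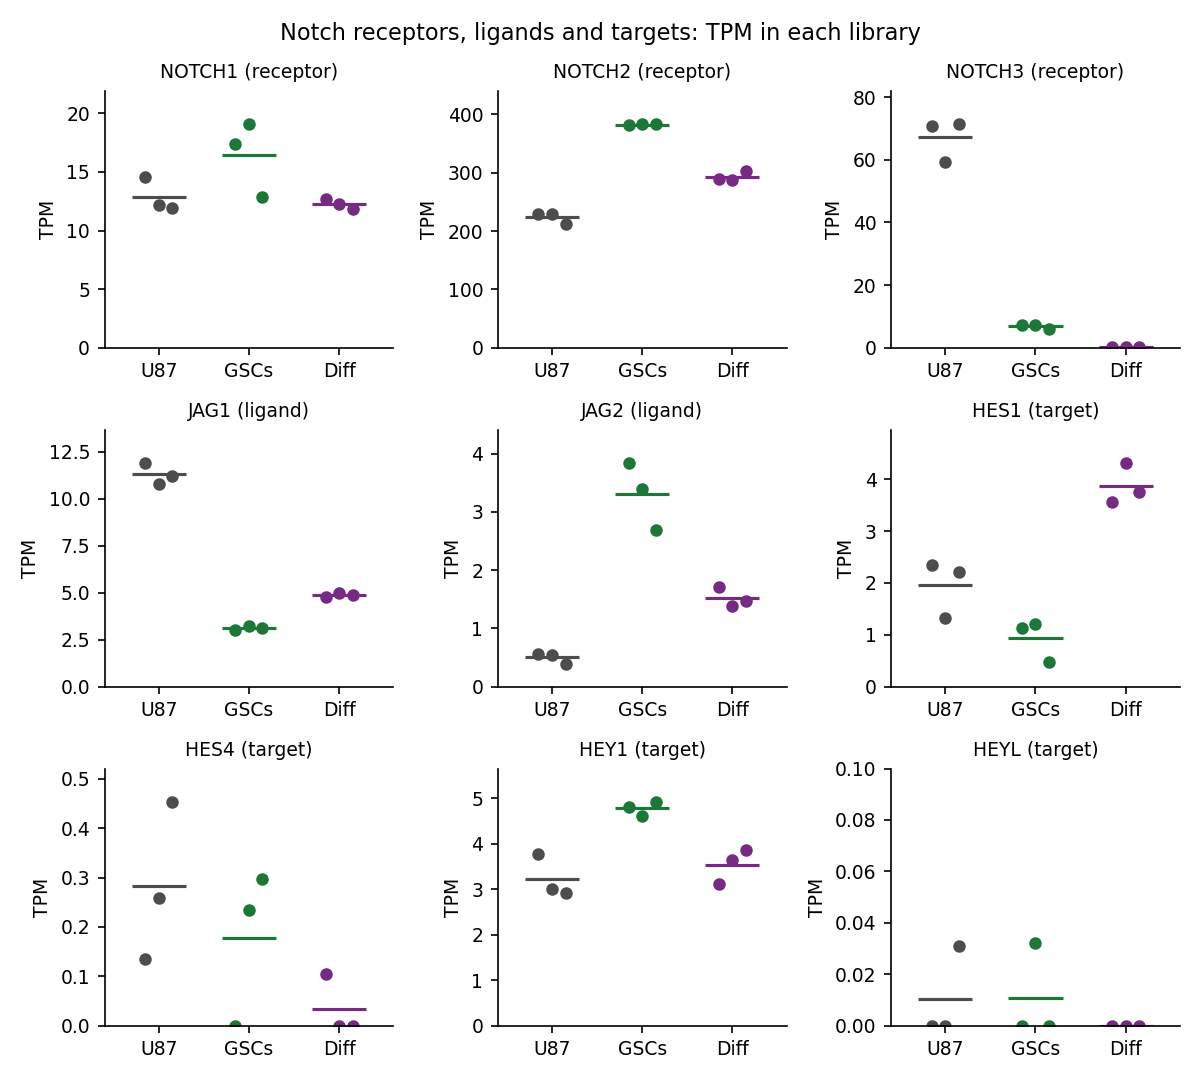
TPM of the 9 Notch genes in each of the 3 libraries of U87 cells, GSCs and Diff cells, 1 panel per gene with its own axis from 0; points are libraries and bars are means. NOTCH3 falls from 59.3 to 71.4 TPM in U87 cells to 0.210 to 0.308 TPM in Diff cells, JAG1 is highest and JAG2 lowest in U87 cells, and HES1 is highest in Diff cells.

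The core letters of the RBPJ site, TGGGAA, were searched on both strands (TTCCCA on the other) in RefSeq promoter windows of GRCh38.p14, each from 250 bases before to 50 bases after a start. Windows were found for 8 of the 9 genes, HEY1 being the exception. TGGGAA was present in 3 of 3 target windows, 0 of 3 receptor windows and 0 of 2 ligand windows, and in 24.0% of all 35116 windows. The longer form GTGGGAA, which contains TGGGAA, was present in the same 3 target windows and in 6.25% of all windows. The stretches around the matches are shown because these 3 genes are the ones the pathway is known to act on; they are written on the gene's strand from 5′ to 3′, with TGGGAA or TTCCCA in capitals.
HES1, chr3:194136028-194136144, plus strand: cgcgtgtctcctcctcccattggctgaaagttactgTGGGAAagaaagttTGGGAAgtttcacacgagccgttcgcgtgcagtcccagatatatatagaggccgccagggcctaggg
HES4, chr1:1000143-1000217, minus strand: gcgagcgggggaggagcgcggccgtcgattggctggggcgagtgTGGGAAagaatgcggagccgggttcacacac
HEYL, chr1:39639804-39639833, minus strand: ccgcctagggccTTCCCAcggctcggcggc
HEYL, chr1:39639725-39639754, minus strand: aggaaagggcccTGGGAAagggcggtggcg

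Counted from the RefSeq start, the HES1 matches began 84 and 70 bases before it and the HES4 match 76 bases before it. The HEYL matches began 178 and 99 bases before it, the outer one on the opposite strand. The GENCODE gene spans given above differ from RefSeq here. Both HEYL stretches lay inside the HEYL span, which starts at 39639945 on the minus strand. The HES4 stretch ran across the start of its span, at 1000172. The HEYL matches were thus upstream by RefSeq only, and the HES4 match lay at the GENCODE start. Both HES1 matches lay before the start in either annotation. The 3 genes with a match differed in level: HES1 lay between 0.485 and 4.31 TPM, and HES4 and HEYL were near 0. Among other HES and HEY genes, HEY2 and HES5 windows held a match, while those of HES6 and HES7 did not. A match is a run of letters and not a measured binding site.

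The order of the 9 levels differed between the lines. In U87 cells it ran NOTCH2, NOTCH3, NOTCH1, JAG1, HEY1, HES1, JAG2, HES4 and HEYL, and the ranges of neighbours overlapped for JAG2 and HES4 only. In GSCs NOTCH1 stood above NOTCH3, and HEY1 was followed by JAG2 and JAG1, whose ranges overlapped, then by HES1, HES4 and HEYL, with the last 2 overlapping. In Diff cells NOTCH2, NOTCH1 and JAG1 were followed by HES1 and HEY1, which overlapped, then by JAG2 and NOTCH3 and, with overlapping ranges, by HES4 and HEYL. NOTCH3 was thus the second of 9 in U87 cells and the seventh in Diff cells.

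In GSCs against U87 cells, 3 of the 7 tested Notch genes were called (JAG2 higher, NOTCH3 and JAG1 lower), beside 17.1% of all genes tested (9.52% called higher, 7.53% lower). Diff cells against U87 cells gave 2 called of 7, both lower (NOTCH3 and JAG1), beside 12.3% of all genes (5.92% called higher and 6.36% lower). In Diff cells against GSCs, 2 of 7 were called (HES1 higher, NOTCH3 lower), beside 8.01% (2.66% higher and 5.36% lower). By adjusted p alone the counts were 6 of 7 beside 48.6%, 5 of 7 beside 39.4% and 5 of 7 beside 34.8%. TPM ranges did not overlap for 6, 5 and 7 of the 7, beside 55.8%, 55.2% and 46.7% of all genes tested. The median log2 fold change of the 7 was 0.32, 0.11 and -0.38, against 0.02, -0.04 and -0.06 over all genes tested. With 7 genes, these shares are coarse, and each comparison held fold changes above and below 0.

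**Figure D3:**
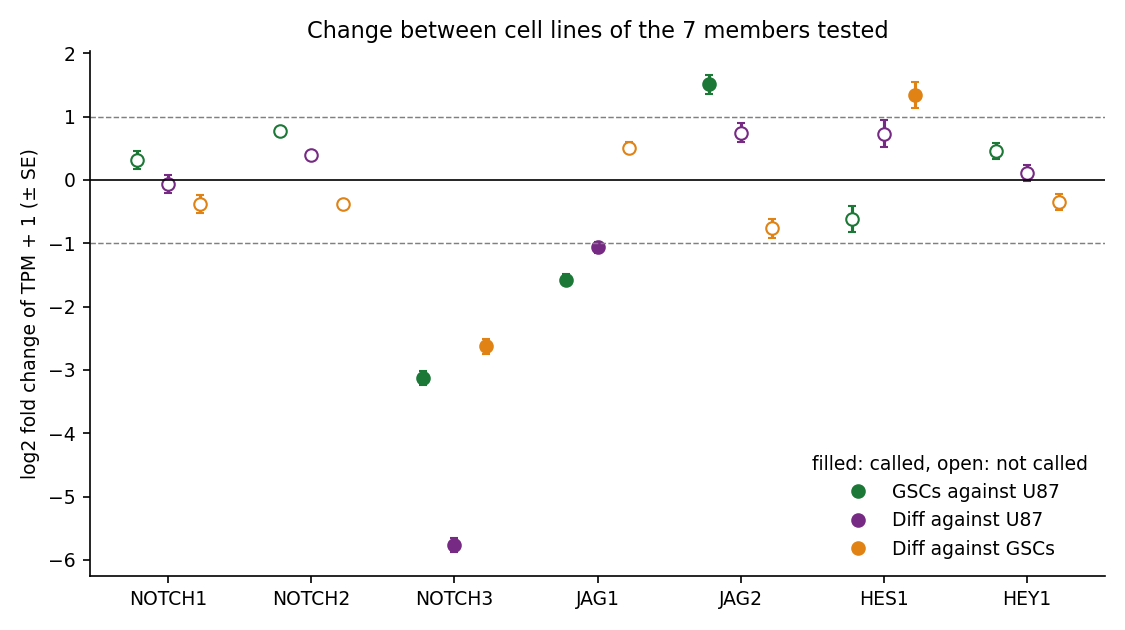
Log2 fold change of TPM + 1 with its SE for the 7 Notch genes tested with limma, in GSCs against U87 cells, Diff cells against U87 cells and Diff cells against GSCs; filled points are called and dashed lines mark a log2 fold change of 1 in either direction. NOTCH3 lies at -3.13, -5.76 and -2.63, and JAG2 in GSCs (1.51) and HES1 in Diff cells against GSCs (1.35) are the called increases.

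The values of the Notch genes were set beside those of the 25 tested genes on either side in the genome. NOTCH3 lay below all 50 of its neighbours in each of the 3 comparisons, and the neighbours' median log2 fold changes were -0.12 in GSCs and -0.00437 in Diff cells against U87 cells and 0.17 between Diff cells and GSCs. NOTCH2 lay above 48 of 50 neighbours in GSCs and 42 of 50 in Diff cells against U87 cells. JAG1 lay above only 3 and 1 of its 50 neighbours in the same comparisons. HES1 lay above all 50 of its neighbours in Diff cells against GSCs and above 48 in Diff cells against U87 cells, but above 11 in GSCs against U87 cells. JAG2, with 38 neighbours, lay above 34 in GSCs and 34 in Diff cells against U87 cells, and above 6 between Diff cells and GSCs. NOTCH1 lay above 36, 18 and 9 of 50 in these 3 comparisons, and HEY1 above 33, 29 and 17 of 50.

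The genes closest to NOTCH3 in pattern over the 9 libraries, by Euclidean distance of log2(TPM + 1) centred on the U87 mean, were FAT1 (distance 0.662), GJB2 (0.841) and IGFBP3 (1.45). FAT1, an atypical cadherin, averaged 48.4 TPM in U87 cells, 4.45 in GSCs and 0.134 in Diff cells. GJB2, a gap junction connexin, averaged 54.3, 5.36 and 0.242 TPM. For JAG1 the closest genes were SEPHS1 (0.244), ANKRD52 (0.256) and CARS1 (0.269), and for HES1 they were RRS1 (0.571), ABCC3 (0.592) and NOS1AP (0.598). These are descriptions over 9 libraries that fall into 3 groups. Any gene with the same log2 differences between the 3 groups scores as close, whatever its level.

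Of 75 further Notch pathway genes on the list used, 58 passed the filter. In GSCs against U87 cells 9 of 58 were called, 4 higher (DNER, NOTCH2NLC, HES7 and TLE1) and 5 lower (DLK2, MFAP2, HEY2, TLE3 and EPN2), beside 17.1% of all genes. In Diff cells against U87 cells 3 of 58 were called, NOTCH2NLC higher and MFAP2 and MAML3 lower, beside 12.3%. In Diff cells against GSCs 6 of 58 were called, HEY2 and LFNG higher and DNER, HES7, RBPJ and MAML3 lower, beside 8.01%. The median log2 fold change of the 58 was -0.01, -0.08 and 0.01 in these comparisons, close to that of all genes. None of the 9 protease and γ-secretase genes was called in any of the 3 comparisons, beside the shares of all genes given above. By adjusted p under 0.05 alone 6, 4 and 3 of the 9 passed, beside 48.6%, 39.4% and 34.8% of all genes tested. With 9 genes these shares are coarse.

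Among non-canonical ligands, DNER, a transmembrane protein with EGF-like repeats, was read at 148.4, 138.3 and 144.1 TPM in U87 cells, at 375.6, 383.0 and 349.7 TPM in GSCs and at 134.5, 138.0 and 138.0 TPM in Diff cells. GSCs were above both other lines by more than the spread, and the log2 fold change was 1.36 ± 0.0502 against U87 cells (limma adjusted p = 1.5e-07) and -1.43 ± 0.0502 for Diff cells against GSCs (adjusted p = 6.75e-07). MFAP2, a microfibril protein, fell from 42.2 ± 2.89 TPM in U87 cells to 8.08 ± 0.967 in GSCs (log2 fold change -2.25, adjusted p = 3.47e-07) and 12.9 ± 0.927 in Diff cells (-1.63, adjusted p = 3.27e-06). DLK2, a Delta-like homologue, fell from 3.53 to 0.871 TPM in GSCs (-1.27, adjusted p = 0.000369), a call lost with log2(TPM + 5) at -0.54.

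Among further targets, HES7, a repressor known from the segmentation clock, was read at 1.85, 1.46 and 1.41 TPM in U87 cells, at 8.73, 11.8 and 9.03 TPM in GSCs and at 1.17, 1.31 and 1.76 TPM in Diff cells. It rose in GSCs by 2.07 ± 0.158 on the log2 scale (limma adjusted p = 9.53e-06) and fell in Diff cells against GSCs by 2.16 ± 0.158 (adjusted p = 2.14e-05). HEY2, a relative of HEY1, went the opposite way, with 2.36, 1.61 and 1.60 TPM in U87 cells, 0.216, 0.486 and 0.186 TPM in GSCs and 1.12, 2.18 and 2.36 TPM in Diff cells. Its log2 fold change was -1.14 ± 0.219 in GSCs against U87 cells (adjusted p = 0.00252) and 1.14 ± 0.219 in Diff cells against GSCs (adjusted p = 0.00422), and neither was called with log2(TPM + 5). By TPM, HES1 and HEY2 were thus lowest in GSCs, and HES7 and HEY1 highest. HEY1 was not called in any comparison, and HES1 was not called between GSCs and U87 cells. HEY2 rests on about 4, 10 and 3 reads in the GSC libraries. MYC and CCND1, also listed as targets, were far more abundant and not called. MYC averaged 67.0, 130.7 and 95.4 TPM in U87 cells, GSCs and Diff cells (0.94 in GSCs against U87 cells, limma adjusted p = 5.96e-05). CCND1 averaged 386.8, 426.5 and 241.7 TPM (-0.82 in Diff cells against GSCs, limma adjusted p = 2.34e-05). HES5 and NRARP did not exceed 0.126 and 0.099 TPM in any library.

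In the nuclear complex, RBPJ, the DNA-binding partner of the Notch intracellular domain, was read at 71.9, 67.6 and 77.2 TPM in U87 cells, at 93.7, 84.1 and 112.2 TPM in GSCs and at 39.0, 34.4 and 35.6 TPM in Diff cells. The Diff libraries were below all others. RBPJ fell in Diff cells against GSCs by 1.38 ± 0.105 on the log2 scale (limma adjusted p = 2.6e-05). Against U87 cells the value was -0.97 ± 0.105 in Diff cells (adjusted p = 0.000109), just under the fold threshold, and it was called at -1.02 without U87 replicate 2 or without Diff replicate 1. MAML3, a Mastermind coactivator, was read at 6.28, 5.35 and 4.79 TPM in U87 cells, at 6.54, 7.64 and 6.98 TPM in GSCs and at 0.526, 0.439 and 0.504 TPM in Diff cells. It fell in Diff cells by 2.11 ± 0.126 against U87 cells (adjusted p = 3.37e-06) and by 2.43 ± 0.126 against GSCs (adjusted p = 3.61e-06), with no overlap between Diff cells and the other lines. With log2(TPM + 5) the value against U87 cells was -0.93 and not called.

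LFNG, a fringe glycosyltransferase that modifies the receptors and alters their response to ligands, rose from 2.55 TPM in GSCs to 10.1 TPM in Diff cells (log2 fold change 1.64 ± 0.117, limma adjusted p = 1.88e-05), with 5.04 TPM in U87 cells, and was not called with log2(TPM + 5). The Groucho corepressors TLE1 and TLE3 moved in opposite directions in GSCs. TLE1 averaged 30.1 TPM against 14.3 in U87 cells (1.02 ± 0.0901, adjusted p = 2.29e-05), a call at the fold threshold that was lost under each of the 3 other scalings, at 0.987 to 1.00, and without U87 replicate 2 or GSCs replicate 2. TLE3 averaged 17.1 TPM against 37.8 (-1.11 ± 0.0926, adjusted p = 1.67e-05). EPN2, an endocytic adaptor, averaged 16.4 TPM against 35.4 (-1.07 ± 0.0728, adjusted p = 4.92e-06). With log2(TPM + 5) none of TLE1, TLE3 and EPN2 was called, TLE1 lying at 0.861.

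**Figure D4:**
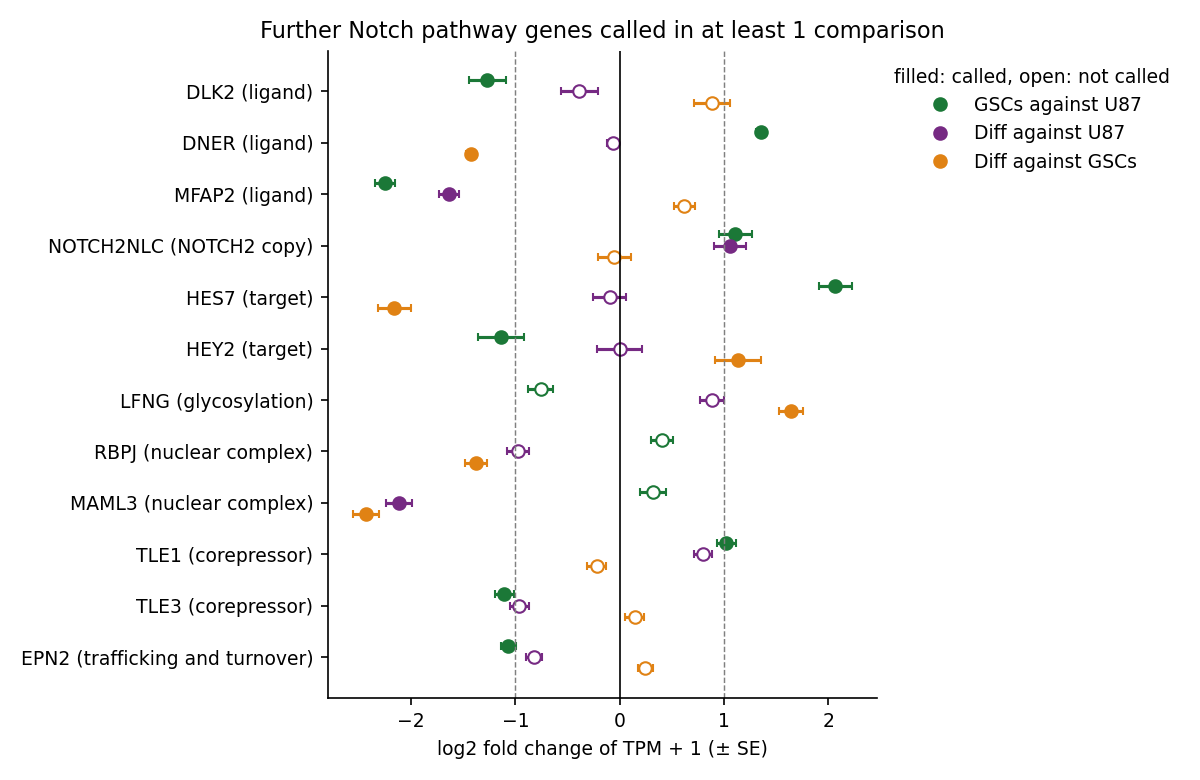
Log2 fold change of TPM + 1 with its SE for the 12 further Notch pathway genes called by limma in at least 1 comparison, grouped by role; filled points are called and open points are not. HES7 (2.07 in GSCs against U87 cells, -2.16 in Diff cells against GSCs) and HEY2 (-1.14 and 1.14) mirror each other, and MAML3 is lower in Diff cells in both comparisons (-2.11 and -2.43).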

How the data were processed

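RNA-seq of 3 libraries each of U87 cells, GSCs and Diff cells was used. The values deposited by the authors are TPM on the log2(TPM + 1) scale. Per the submitters' processing notes, FastQC 0.11.9, Trimmomatic 0.39, HISAT2 2.2.1, featureCounts 2.0.5 and R 4.2.0 were used with GRCh38. The annotation and the strand setting of counting are not given in the sources used here. The labels describe ribosomal RNA removal and a directional kit, the study's methods oligo(dT) selection. Genes with a mean TPM over 1 (22909 of 60606) entered 1 linear model of the 9 libraries, fitted by lmFit and moderated by eBayes with an intensity trend (limma 3.58.1, R 4.3.3), and p-values were adjusted by Benjamini-Hochberg within each comparison over all of them. The fit was tested on simulated data. Of 60606 genes, 53492 matched GENCODE 29, which gave positions. Promoter sequence came from RefSeq (GRCh38.p14).

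Reads were approximated from TPM times exon length: 81.2 to 82.2% of values of up to 20 reads were within 0.05 of a whole number, so they served for depth only and no count test was run. RNA of 7SL and 7SK took 6.22 to 11.54% and mitochondrial RNA 25.9 to 31.8% of TPM.

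The 9 genes, the 75 further pathway genes and the marker lists were chosen with earlier results of these data known. Named in the text are all 9 genes, every further pathway gene called, NOTCH4, the Delta-like ligands, RBPJ and the NOTCH2 copies. The targets MYC, CCND1, HES5, HES6 and NRARP are named as well. Also named are the 3 genes closest in pattern to the receptor, the ligand and the target with the largest change. Some of these are given by distance only. Alternatives were other pseudocounts, filters and scalings, limma without a trend, a replicate block, and each library left out. Tables were made with pandas 2.3.3 and numpy 2.4.6 under Python 3.11.15, and plots with matplotlib 3.10.9.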

Additional observations from a re-analysis of the deposited data

How the results depend on the processing

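NOTCH3 was called in all 3 comparisons under every alternative that could be run, and with 1 library left out the counts of called Notch genes stayed at 3 in GSCs against U87 cells, 2 in Diff cells against U87 cells and 2 in Diff cells against GSCs. Low reads limit HES1, JAG2, HES4 and HEYL, and the cause of the shifts listed here was not tested. With log2(TPM + 5), 1 Notch gene was called in Diff cells against U87 cells and 1 against GSCs. Quantile normalization left 1 in Diff cells against U87 cells. A mean TPM over 5 left 1 in Diff cells against GSCs. Under this filter HES1, HEY1 and JAG2 were no longer tested, so the JAG2 call in GSCs against U87 cells was lost as well. By adjusted p alone, 6, 5 and 5 were called in GSCs against U87 cells, Diff cells against U87 cells and Diff cells against GSCs. Of the further pathway genes, log2(TPM + 5) left 3 and 1 in the first and second of these comparisons, a mean TPM over 5 left 3 in the third, and adjusted p alone gave 34, 30 and 25. With 1 library left out the counts ran from 8 to 10, from 3 to 5 (5 without U87 replicate 2) and from 6 to 8. Over all genes, 3908, 2812 and 1836 were called; a mean TPM over 5 gave 2254, 1583 and 1038, log2(TPM + 5) gave 1707, 1146 and 673, adjusted p alone gave 11129, 9024 and 7982, and leaving out 1 library gave 3797 to 3980, 2755 to 2811 and 1773 to 1907.

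Signs turned only in values near 0 that were not called. NOTCH1 in Diff cells against U87 cells ran from -0.113 to 0.0235 with 1 library left out and was above 0 without U87 replicate 1. HEY2 in the same comparison was 0.00414 with log2(TPM + 5), 0.0162 after rescaling without 7SL, 7SK and mitochondrial RNA, 0.0237 with median-ratio scaling, 0.0578 with quantile normalization and -0.125 to 0.206 with 1 library left out. NOTCH2NLC in Diff cells against GSCs was 0.017, 0.000796 and 0.0385 under these 3 scalings and -0.219 to 0.0795 with 1 library left out. With the copies added to NOTCH2, its share of receptor TPM in Diff cells was 96.2%. The other scalings moved the median of all genes by less than 0.1 on the log2 scale.

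Replicate numbers did not pair the libraries: deviations of same-numbered libraries correlated at -0.042 to 0.049. With a replicate block, 3917, 2810 and 1831 genes were called, the calls of the 9 genes were unchanged, and the adjusted p of HES1 in GSCs against U87 cells was 0.0658.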
